A study of Mus musculus with 22 samples.

Results

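Livers of inbred mice from 1 treatment group did not give the same level for every mRNA, and the 200 loci described here were those that differed most between the 3 total RNA libraries of the 0 h group. For each of the 9697 loci with a complete estimate in the 9 total RNA libraries of 0 h, 2 h and 4 h and a mean of at least 50 counted fragments at 0 h, the spread was taken as the SD over the 3 libraries at 0 h of log2(CPM + 0.5), where CPM is the fragments counted on a locus per 1000000 fragments counted in its library. The 200 loci with the highest spread were kept, out of 39897 in the table. The members were selected on their values at 0 h, so these values are a description with no test, and the libraries at 2 h and 4 h, which played no part in the choice, show whether the spread and the level held.

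The mice were C57BL/6 males, 5 weeks old, and the study used 15 of them. Tunicamycin (Tm), 0.1 mg/kg, was injected intraperitoneally at 8 am, and livers were taken at 10 am for the 2 h group and at 12 noon for the 4 h group. The 0 h mice were culled at 9 am; the methods call them controls, the labels name tunicamycin for them too, and neither says whether they were injected. Time after injection and time of day changed together and cannot be told apart. Total RNA of each time point gave 3 libraries, and RNA from heavy polysomes (more than 3 ribosomes) at 4 h gave another 3. Libraries are named here by their read group number in the deposited table (0, 1 or 2), since nothing ties these numbers to the titles of the samples. The methods give 3 animals for each time point, while the labels name only separate samples and tie no library to an animal. The p-values measure the spread between these libraries.

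Tm blocks N-linked glycosylation in the endoplasmic reticulum, and proteins that fail to fold there start the unfolded protein response, which slows translation by phosphorylation of eIF2α and later changes transcription. In the liver this falls on hepatocytes, which secrete most plasma proteins and carry much of the body's metabolism. The spread between replicate livers holds differences between animals as well as errors of dissection, library preparation and counting. The table gives each locus a number but no gene name or position, so no function could be stated for any locus, and the liver identity of the samples was not checked against marker genes.

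The depth at 0 h was 11282111 fragments in library 0, 17283500 in library 1 and 10556153 in library 2, and ranged from 9788578 to 13726378 in the other 9 libraries. Library 2 at 2 h stood apart, with the lowest value of the time point at 62.1% of all eligible loci and a TMM scaling factor of 0.869, against 0.956 to 1.07 in the other libraries. At 0 h, library 1 held the highest value at 48.9% of eligible loci. Results that rest on these libraries are given below or in the closing section with and without them.

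The members had a median SD of 0.66 at 0 h, with a range from 0.55 to 1.81, while the median of all eligible loci was 0.14. Each member was set beside its abundance neighbours, the 10 other eligible loci nearest to it in rank of mean CPM at 0 h (1702 distinct loci), and these had a median SD of 0.16. Counting error alone would give the members a median SD of 0.13. The last locus kept, XLOC_015919, had 5.76, 5.03 and 2.56 CPM in libraries 0, 1 and 2 at 0 h, and XLOC_007845 before it had 3.46, 6.36 and 7.77 CPM. The first locus left out, XLOC_023140, had 14.6, 15.3 and 7.48 CPM, and XLOC_002116 after it had 34.5, 22.9 and 49.6 CPM. Their SDs ran from 0.553 inside the limit to 0.551 outside it, so the limit cut through a continuous range.

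Each member was classed by the library at 0 h that lay farthest from the other two, high or low. Any 3 values fall into 1 of these 6 patterns, and some members were spaced almost evenly. Library 1 was the library set apart by a high value in 66 members (33% of members, beside 24.2% of all eligible loci), and library 2 was set apart by a low value in 51 (25.5%, beside 26.8%). The other members had library 0 low (27), library 0 high (23), library 1 low (22) or library 2 high (11). The highest value was in library 1, the deepest of the 3, for 114 members (57%), and the part of depth in this was not tested.

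The locus with the highest SD, XLOC_023236, had 44.3, 551 and 147 CPM in libraries 0, 1 and 2 at 0 h and belonged to the group with library 1 high. XLOC_026516, the next, rested on few fragments, with 66, 92 and 3 counted at 0 h, and led the members with library 2 low. XLOC_000769, which led the members with library 1 low, had 27.7, 2.84 and 16.9 CPM. Library 1 was thus the highest in XLOC_023236 and the lowest in XLOC_000769. XLOC_001400 followed with 11.1, 12.7 and 1.42 CPM, and XLOC_013328 with 59.5, 8.16 and 50.4 CPM. XLOC_019508 led the members with library 0 low, at 31.6, 226 and 176 CPM. The leaders of the remaining patterns had smaller spreads: XLOC_001882 had 17.6, 6.83 and 4.55 CPM, with library 0 high, and XLOC_018904 had 2.22, 4.22 and 9.47 CPM, with library 2 high.

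At 2 h the members were still more variable than loci of equal abundance, with a median SD of 0.44 against 0.21 in the neighbours, a ratio of 2.14. At 4 h the medians were 0.28 and 0.15, a ratio of 1.89. Of the 200 members, 167 had an SD above the median of their own 10 neighbours at 2 h, 156 at 4 h, and 134 at both, while 11 were above it at neither. The members therefore kept a part of their spread, but most were less variable than they had been at 0 h: only 37 had a higher SD at 2 h than at 0 h, and 27 at 4 h. Because the members were chosen for a high SD at 0 h, a lower SD in other libraries is not read here as a change between time points. Without library 2 at 2 h the ratio there was 2.36, and without library 1 it was 1.93.

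**Figure D1:**
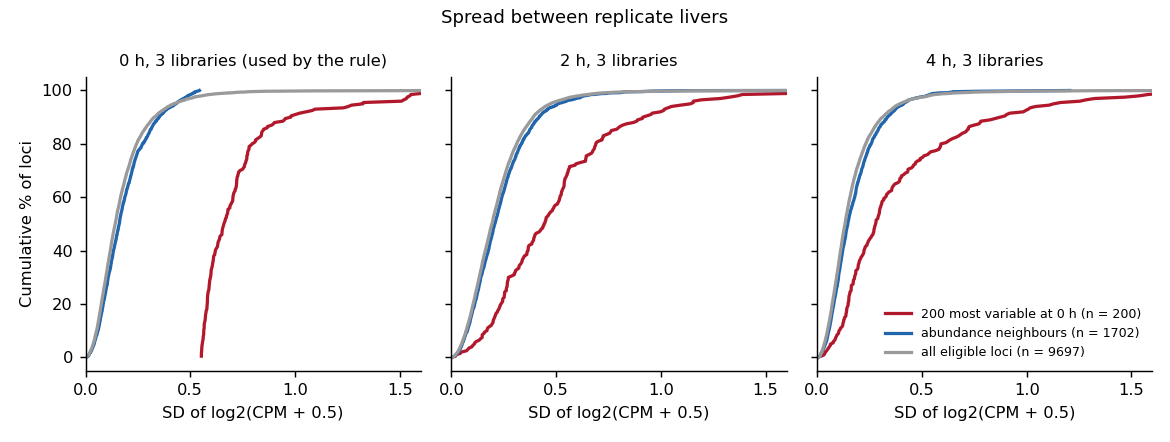
Cumulative percentage of loci (vertical axis) against the SD over 3 total RNA libraries of log2(CPM + 0.5) (horizontal axis, shown up to 1.6) at 0 h, 2 h and 4 h, for the 200 loci most variable at 0 h, their 1702 abundance neighbours and all 9697 eligible loci. At 0 h the rule itself sets the members apart; at 2 h and 4 h the curve of the members stays to the right of the other curves but moves toward them, with medians of 0.44 and 0.28 against 0.21 and 0.15 in the neighbours.

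Ranked again by SD at 2 h, 55 members (27.5%) were among the 200 most variable of the 9697 loci, a list that holds 2.06% of all eligible loci. At 4 h it was 48 members (24%), beside the same 2.06%. Both later lists held 21 members, and 118 members were in neither. The members with the highest SD at 0 h returned most often: of the first 50, 21 were in the 2 h list and 20 in the 4 h list, while of the last 50 it was 11 and 7. Across the members, Spearman's rho between the SD at 0 h and at a later time was 0.20 for 2 h and 0.31 for 4 h, values that describe 200 loci measured in the same 9 libraries.

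The ratio to the neighbours was higher in members with more fragments. The 71 members with a mean under 100 fragments at 0 h had ratios of 1.54 at 2 h and 1.33 at 4 h. The 89 members with 100 to under 400 fragments had 2.29 and 2.10. The 40 members with 400 fragments or more, where counting error is smallest, had 2.88 and 3.30. Members were as a whole less deeply counted than other loci, with a median of 156 fragments beside 316 for all eligible loci.

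**Figure D2:**
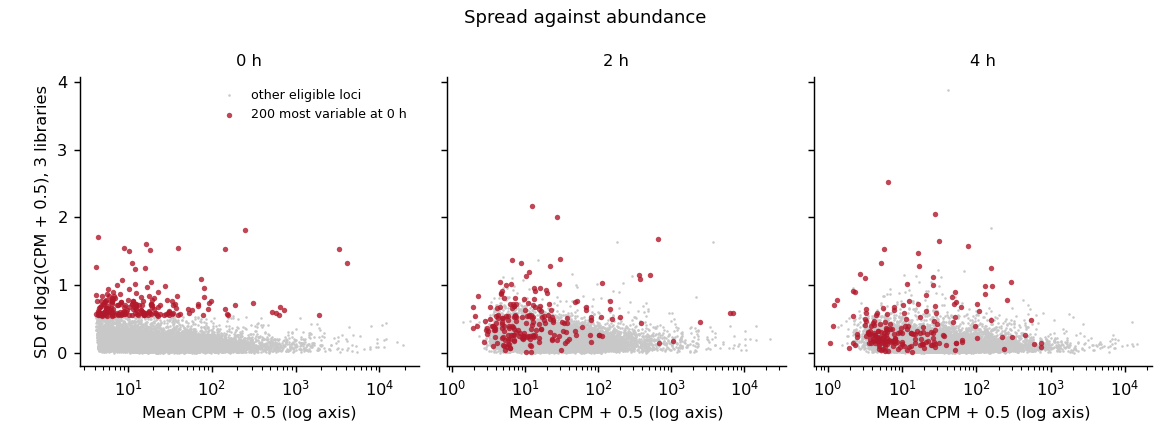
SD over 3 total RNA libraries of log2(CPM + 0.5) against the mean CPM + 0.5 on a log axis, at 0 h, 2 h and 4 h, with the 200 loci most variable at 0 h in red and the other eligible loci in grey. At 0 h the red points lie above a straight limit at 0.55 set by the rule; at 2 h and 4 h they spread down into the grey cloud, with 55 and 48 of them among the 200 highest.

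Of the members in all 3 lists, XLOC_000769, XLOC_019508 and XLOC_011553 had the highest SD at 0 h. XLOC_000769 had 19.9, 4.19 and 5.41 CPM at 2 h and 25.7, 24.1 and 11.5 CPM at 4 h. Library 1 was lowest at 0 h and 2 h but not at 4 h, where library 2 was. XLOC_011553 had 2.84, 22.5 and 3.88 CPM at 0 h, 6.13, 23.2 and 8.52 CPM at 2 h, and 69.5, 82.0 and 33.3 CPM at 4 h. Its library 1 was highest at each time, by a smaller factor at 4 h.

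The members with the highest mean SD over 2 h and 4 h were not those with the highest SD at 0 h. XLOC_003389, ranked 153 at 0 h with 30.8, 16.5 and 14.02 CPM, had 14.2, 34.6 and 14.2 CPM at 2 h and 0.416, 0.323 and 17.4 CPM at 4 h. Libraries 0 and 1 at 4 h held 5 and 4 fragments of it and library 2 held 203, so that its SD of 2.52 at 4 h was the second highest of all eligible loci. XLOC_023235 had 42.2, 3.06 and 35.4 CPM at 2 h and 3.91, 3.39 and 0.602 CPM at 4 h, from 3.01, 15.0 and 5.59 CPM at 0 h. XLOC_016603 had 14.2, 15.3 and 7.10 CPM at 0 h, 17.5, 40.5 and 6.42 CPM at 2 h, and 169, 42.0 and 19.0 CPM at 4 h. In XLOC_016603 library 2 was lowest at every time, while the highest library changed. XLOC_025989 had 10.7, 3.18 and 5.59 CPM at 0 h, 13.4, 1.74 and 3.12 CPM at 2 h, and 6.49, 8.56 and 0.773 CPM at 4 h. XLOC_025139 had 3.19, 16.5 and 14.9 CPM at 0 h, 3.30, 1.33 and 7.33 CPM at 2 h, and 18.9, 67.6 and 6.45 CPM at 4 h. In both of them the order of the 3 libraries at 4 h differed from that at 0 h.

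The 3 members with the lowest mean SD over 2 h and 4 h were close together once past 0 h. XLOC_030291 had 8.07, 14.5 and 6.54 CPM at 0 h, but 11.2, 11.5 and 11.4 CPM at 2 h and 8.98, 7.19 and 7.65 CPM at 4 h. XLOC_027740 went from 20.2, 8.79 and 14.5 CPM at 0 h to 9.44, 9.71 and 9.72 CPM at 2 h and 10.6, 9.21 and 10.4 CPM at 4 h. XLOC_003303 had 10.1, 3.59 and 3.98 CPM at 0 h, 3.397, 4.09 and 3.30 CPM at 2 h, and 4.91, 4.61 and 4.64 CPM at 4 h. Their SDs at 2 h were 0.019, 0.023 and 0.15, below the neighbours' medians of 0.15, 0.23 and 0.36. At 4 h their SDs were 0.16, 0.10 and 0.045, beside neighbours' medians of 0.16, 0.11 and 0.26, so that XLOC_030291 and XLOC_027740 were then about as variable as loci of equal abundance.

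**Figure D3:**
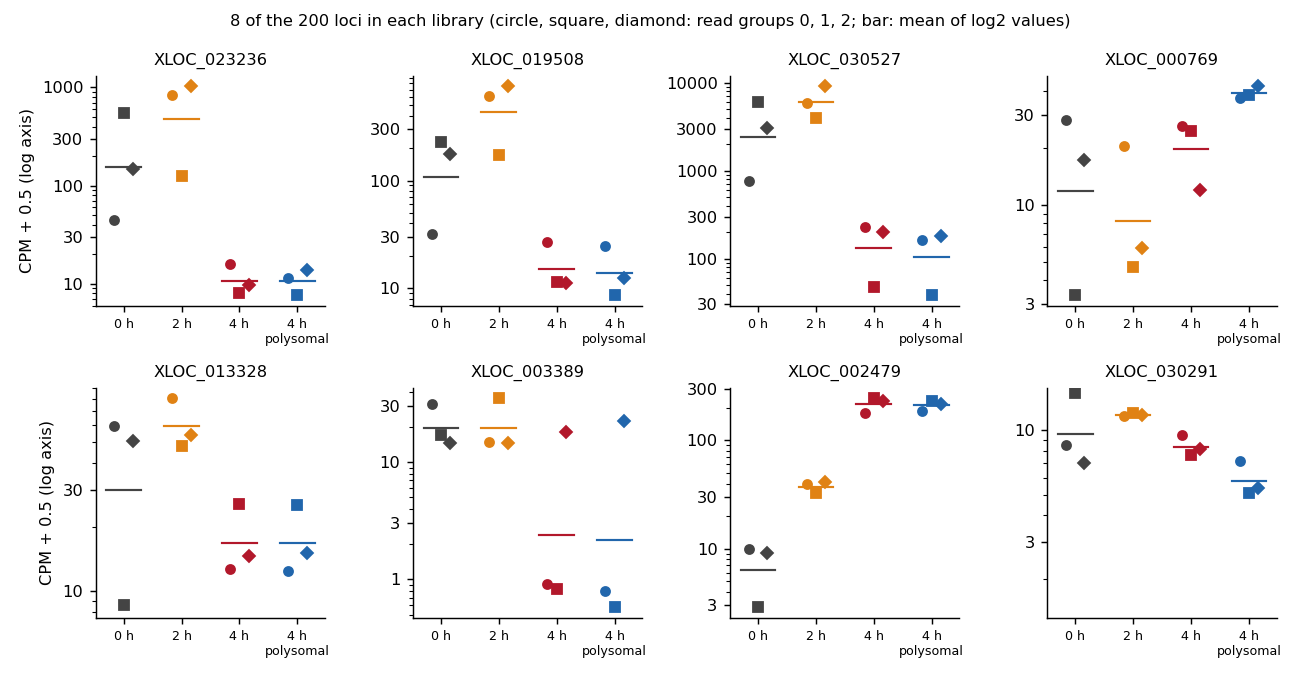
CPM + 0.5 on a log axis for 8 of the 200 loci in each library of total RNA at 0 h, 2 h and 4 h and of polysomal RNA at 4 h; circles, squares and diamonds are read groups 0, 1 and 2, and bars are the means of the log2 values (n = 3). The 3 loci at the upper left were lower at 4 h than at 2 h and XLOC_002479 was higher, each without overlap, XLOC_003389 was high in read group 2 alone at 4 h in total and polysomal RNA, and XLOC_030291 was spread at 0 h and close together at 2 h.

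The 3 members with the most fragments at 0 h carried much of the RNA of the group. XLOC_032037 had 1165, 6948 and 4145 CPM at 0 h and 6889, 4418 and 10002 CPM at 2 h, then 373, 110 and 400 CPM at 4 h. XLOC_030527 had 759, 6113 and 3041 CPM at 0 h, 5926, 4007 and 9128 CPM at 2 h, and 230, 47.5 and 202 CPM at 4 h. At 0 h and 2 h these 2 loci had their 3 libraries in the same order, and all their values at 4 h lay below every earlier one. XLOC_023233 had 1218, 2646 and 1878 CPM at 0 h, 2590, 1657 and 3094 CPM at 2 h, and 784, 699 and 756 CPM at 4 h, where its SD was 0.079.

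Per length, XLOC_032037 and XLOC_030527 had mean levels at 0 h of 6467 and 5021 FPKM, while the median member had 3.96 FPKM and the median neighbour 4.60. Fragments per FPKM put both at less than 0.25 of the length of the median locus, but the members as a group were not short: their median relative length was 1.05, beside 0.944 for the neighbours. The 200 members together took 0.909%, 2.50% and 1.62% of the counted fragments in libraries 0, 1 and 2 at 0 h. They took 2.37%, 1.64% and 3.09% at 2 h and 0.840%, 0.736% and 0.812% at 4 h. XLOC_032037 and XLOC_030527 alone made up 21.2% to 61.9% of these fragments at 0 h and 2 h and 2.14% to 7.41% at 4 h. Without the 3 most abundant loci, the other 197 took 0.594% to 0.926% of fragments at 0 h, 0.633% to 0.867% at 2 h and 0.650% to 0.701% at 4 h, ranges that overlap.

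The level of most members stayed near that of 0 h at 2 h and less so at 4 h. The median difference from 0 h, in log2(CPM + 0.5), was -0.08 at 2 h, beside -0.05 in the neighbours and -0.07 in all eligible loci. At 4 h it was -0.17 in the members, beside 0.05 and 0.06. In bulk RNA, fewer cells of a type and less RNA per cell cannot be told apart. Since the 0 h values chose the members, these differences carry no test, and leaving out library 0 at 0 h and choosing anew turned the 2 h median to 0.04.

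A 2-fold difference in the mean level from 0 h was more frequent among members than among all eligible loci. At 4 h, however, the share of members that were 2-fold higher was close to that of the neighbours. At 2 h, 10 members (5%) were at least 2-fold higher and 14 (7%) lower, beside 0.392% and 0.382% of all eligible loci. At 4 h, 14 members (7%) were higher and 33 (16.5%) lower, beside 4.62% and 2.06% of all eligible loci. Among the neighbours, counted once for each member they stand beside, it was 0.45% and 0.35% at 2 h and 6.1% and 2.6% at 4 h. Complete separation from 0 h was less frequent among members than among all loci, or close to it, and the width of the 0 h range is what chose them. All 3 libraries lay above the 0 h range in 5 members at 2 h (4.19% of all eligible loci) and in 12 at 4 h (30.7%), and below it in 8 members at 2 h (12.6%) and in 31 at 4 h (17.4%). The mean of the 3 libraries stayed inside the 0 h range in 160 members at 2 h and in 125 at 4 h.

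The comparison of 4 h with 2 h uses no 0 h library. With edgeR's quasi-likelihood test over the 6 libraries, with a threshold of 0.05 on the adjusted p (Benjamini-Hochberg) and of 2-fold on the change, 67 of the 200 members (33.5%) were called, against 6.76% of the 12265 loci tested and 6.23% of the neighbours. Of these, 21 were higher at 4 h (3.53% of all loci tested) and 46 lower (3.23%). With no minimum fold, 86 members (43%) passed, beside 24.4% of loci tested. The libraries of 2 h and 4 h did not overlap in 84 members (42%), the same share as among all loci tested (41.9%). Members thus passed the test more often than all loci, with and without the 2-fold limit, while their libraries lay apart no more often. Their spread within each time point was also larger than that of the neighbours. The part of this spread in the size of the changes was not tested. Leaving out 1 library at a time gave 51 to 76 called members.

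Among the called members, the falls reached further than the rises. Members called lower at 4 h had a median log2 change of -1.76, down to -6.15, and 17 of the 46 fell by at least 4-fold. Those called higher had a median of 1.596, up to 3.36, and 6 of the 21 reached 4-fold. In 25 of the 46 members called lower, all 3 values at 4 h were also under the 0 h range, and in 9 of the 21 called higher they were all over it. These counts and those of 4-fold changes were not made for all called loci, so they are not read as traits of the members. Calls were found in each of the patterns seen at 0 h, from 6 of the 51 members with library 2 low to 31 of the 66 with library 1 high and 7 of the 11 with library 2 high. The share called among all loci of each pattern was not computed, so these counts are not read as traits of the patterns.

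XLOC_023236 fell from 831, 124 and 1027 CPM at 2 h to 15.4, 7.51 and 9.20 CPM at 4 h. No library of 4 h reached the lowest of 2 h, although the values at 2 h themselves spread over 8.25-fold. Its log2 change was -6.15 (SE 0.75, edgeR adjusted p = 0.000550). XLOC_019508 fell from 614, 171 and 751 CPM to 26.4, 10.99 and 10.6 CPM, a log2 change of -5.20 (SE 0.60, edgeR adjusted p = 0.000410). In both loci library 1 was the lowest at 2 h.

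XLOC_030527 and XLOC_032037, given above in every library, changed by -5.49 (SE 0.61, edgeR adjusted p = 0.000333) and -4.77 (SE 0.53, edgeR adjusted p = 0.000334) on the log2 scale. XLOC_002546 had 6.82, 18.5 and 10.9 CPM at 0 h and went from 18.2, 6.13 and 22.1 CPM at 2 h to 1.41, 0.243 and 0.430 CPM at 4 h. Its 4 h libraries held 17, 3 and 5 fragments, so that its log2 change of -4.65 (SE 0.63, edgeR adjusted p = 0.000889) rests on few counts at 4 h. These 5 falls, the largest among members whose libraries did not overlap, kept their call when any 1 of the 6 libraries was left out.

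XLOC_002479 was the clearest rise, from 38.8, 32.0 and 40.6 CPM at 2 h to 180, 245 and 232 CPM at 4 h. Each time point was tight, and the log2 change was 2.39 (SE 0.17, edgeR adjusted p = 4.20e-05). At 0 h it had 9.48, 2.37 and 8.62 CPM, so both later time points lay above the 0 h range. XLOC_035361 rose from 31.4, 30.5 and 29.6 CPM to 194, 65.9 and 235 CPM, a log2 change of 2.29 (SE 0.38, edgeR adjusted p = 0.00265). Its spread, 46.6, 143 and 33.2 CPM at 0 h, had vanished at 2 h and was back at 4 h, with library 1 high at 0 h and low at 4 h.

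XLOC_011553, with the values given above, rose by 2.16 on the log2 scale (SE 0.42, edgeR adjusted p = 0.00570). XLOC_018807 had 9.13, 4.05 and 4.45 CPM at 0 h, 4.15, 7.46 and 2.11 CPM at 2 h, and 18.7, 16.5 and 16.2 CPM at 4 h, a log2 change from 2 h of 1.78 (SE 0.29, edgeR adjusted p = 0.00221). XLOC_016850 had 76.8, 54.7 and 135 CPM at 0 h, 223, 126 and 117 CPM at 2 h, and 416, 440 and 771 CPM at 4 h, a log2 change from 2 h of 1.66 (SE 0.29, edgeR adjusted p = 0.00352). In all 5 of these rises every 4 h library was above every 2 h library, and the calls held without any 1 library.

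**Figure D4:**
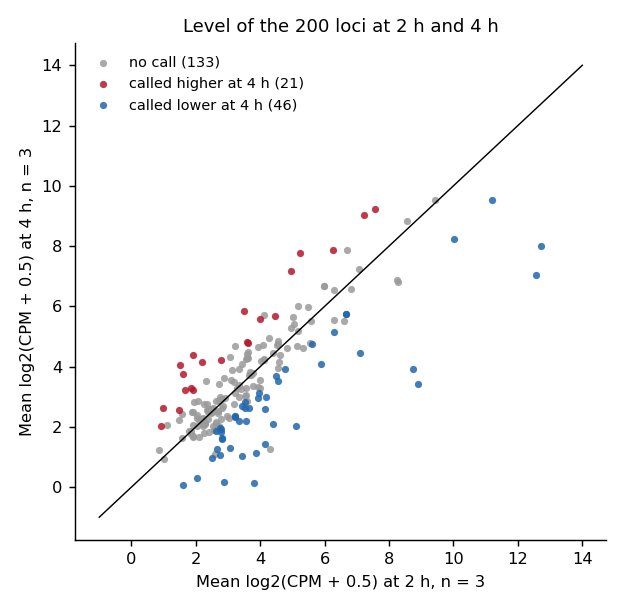
Mean log2(CPM + 0.5) of the 200 loci at 4 h against 2 h, with 3 libraries at each time point; the line marks equal levels. The 21 loci called higher at 4 h lie above the line, the 46 called lower lie below it, with the most abundant loci of 2 h among the largest falls, and the 133 others lie around it.

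Members with the same pattern at 0 h moved together only weakly later. Over the 6 libraries of 2 h and 4 h, each centred on its group mean, pairs of members with the same 0 h pattern had a mean correlation of 0.12 (4310 pairs), pairs with opposite patterns had -0.04 (2634 pairs) and all pairs had 0.02 (19900 pairs). The 51 members with library 2 low at 0 h had a mean of 0.27 and the 11 with library 2 high had 0.29, while those with library 1 high had 0.05. Library 2 at 2 h carried much of this, since without it the mean over pairs of the same pattern was 0.04. These pairs share their libraries and are not independent.

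At 4 h the spread between total RNA libraries was seen again, in part, in polysomal RNA. The deviation of each member from its 4 h group mean was correlated across the 200 members between the total and the polysomal library of the same number, with Pearson's r of 0.60, 0.74 and 0.72 for numbers 0, 1 and 2. Between libraries of different numbers r ran from -0.63 to 0.03. In the neighbours the same numbers gave 0.35 to 0.38, and in all eligible loci 0.44 to 0.45. Members also spread further beyond counting error than the neighbours, and the part of this in their higher r was not tested. These values describe 200 loci in 6 libraries, and deviations over 3 libraries sum to 0, which pulls correlations between different numbers below 0.

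The median SD of the members in polysomal RNA at 4 h was 0.37, against 0.19 in the neighbours, a ratio of 1.95. The library with the highest value had the same number in total and polysomal RNA for 97 members (48.5%, beside 42.3% of all eligible loci), and for 34 of the 48 members in the 4 h list. That list was drawn from these same total RNA libraries, and the share among its other loci was not computed. XLOC_003389 had 0.299, 0.0779 and 22.1 CPM in polysomal RNA, with library 2 far above the others as in total RNA. XLOC_016603 had 234, 58.2 and 33.8 CPM in polysomal RNA, in the same order as in total RNA. XLOC_000769 instead had 36.3, 37.4 and 41.8 CPM there, without the low library 2 of total RNA.

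**Figure D5:**
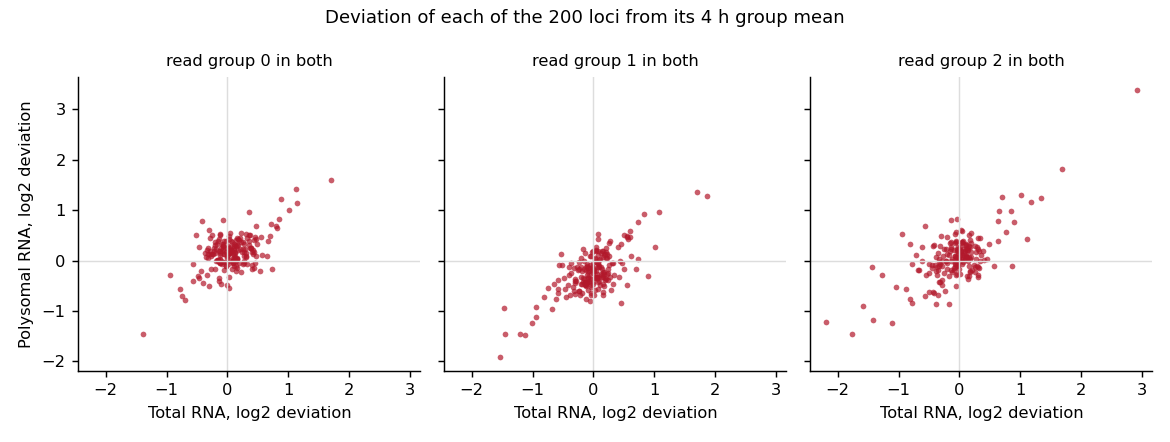
Deviation of each of the 200 loci from its group mean at 4 h, in log2(CPM + 0.5), in polysomal RNA (vertical axis) against total RNA (horizontal axis), with 1 panel for each read group number. In each panel the points run from lower left to upper right, with Pearson's r of 0.60, 0.74 and 0.72, and the point at the upper right of the third panel is XLOC_003389.

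The levels in polysomal and total RNA at 4 h were then compared over the same 6 libraries. Of the 197 members that passed the low-count filter, edgeR's quasi-likelihood test called 22 (11.2%), beside 4.52% of the 12575 loci tested and 3.77% of the neighbours tested. There were 11 members higher in polysomal RNA (1.34% of all loci tested) and 11 lower (3.18%). With no minimum fold 61 members (31%) passed, beside 26.3% of loci tested, and the libraries did not overlap in 63 members (32%), beside 42.1%. This fit did not pair the libraries, so whether the excess of members lay in changes of at least 2-fold is not read from these shares. The read group numbers pair these libraries, as described below. Adjusted p-values of single loci differed in the fit with these numbers as a block, for which no count without a minimum fold was made. Leaving out 1 library at a time gave 16 to 31 called members.

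XLOC_000336 had the largest difference, with 11.9, 12.8 and 4.98 CPM in total RNA and 1.94, 0.467 and 1.68 CPM in polysomal RNA at 4 h. Its highest polysomal value was below its lowest total value, and the log2 difference, polysomal minus total, was -2.86 (SE 0.41, edgeR adjusted p = 0.000910). At 0 h it had 14.8, 16.03 and 4.17 CPM, with library 2 low there too. XLOC_014849 had 2.33, 2.10 and 1.46 CPM in total and 0.897, 0.389 and 0.219 CPM in polysomal RNA, a log2 difference of -1.97 (SE 0.44, edgeR adjusted p = 0.00814) that rests on 12, 5 and 3 polysomal fragments. XLOC_002686 had 5.16, 8.48 and 3.52 CPM in total and 2.54, 2.34 and 1.68 CPM in polysomal RNA, a log2 difference of -1.40 (SE 0.31, edgeR adjusted p = 0.00824).

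On the other side, XLOC_034729 had 1.498, 1.94 and 1.63 CPM in total and 6.43, 2.96 and 4.08 CPM in polysomal RNA, with a log2 difference of 1.38 (SE 0.30, edgeR adjusted p = 0.00725). XLOC_032581 had 7.48, 5.98 and 6.19 CPM in total and 15.1, 10.9 and 22.8 CPM in polysomal RNA, with a log2 difference of 1.29 (SE 0.23, edgeR adjusted p = 0.00313). XLOC_000867 had 3.66, 2.91 and 3.35 CPM in total and 7.93, 7.09 and 9.18 CPM in polysomal RNA, with a log2 difference of 1.26 (SE 0.19, edgeR adjusted p = 0.00101). The groups did not overlap in any of these loci. Only XLOC_032581 lost its call when a library was left out, with a log2 difference of 0.98 without polysomal library 2, under the 2-fold limit.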

How the data were processed

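The authors made stranded poly(A) libraries from mouse liver, sequenced them as single-end reads, aligned them with TopHat (version 2.0.13 in the submitters' processing notes) against GRCm38 transcripts, and quantified them with Cuffdiff (Cufflinks 2.2.1), correcting for fragment bias and multiply mapped reads. The annotation release is not given in the sources used here. Deposited by the authors were the raw fragment count and the FPKM of every locus in every read group, with no averaging. Whether the counts reflect the correction for multiply mapped reads is not stated, so loci that share sequence can exchange counts. Loci that were skipped for too much data (37) were at 0 and left out. In all, 105 read groups were not used: 69 in the table of the 0 h to 4 h pool, among them polysomal RNA at 0 h and 2 h, with 3 read groups for 2 labelled samples, and 36 in that of the 10 h pool, which numbers its loci separately. Group means deposited by the authors were not used.

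The members and lists were chosen with earlier results of these data known. Counts were scaled to CPM, with a pseudocount of 0.5, and SDs, patterns and levels were computed with Python 3.11.15, numpy 2.4.6 and pandas 2.3.3. Relative length is the ratio of counted fragments to FPKM, each summed over the total RNA libraries, divided by the median ratio of all eligible loci. The expected counting error treats fragments as independent and covers counting alone. The 2 tests were edgeR 4.0.16 (R 4.3.3) quasi-likelihood tests after TMM and filterByExpr, over all loci, without pairing. At 4 h, total and polysomal libraries of the same read group number deviated together over all eligible loci, with r from 0.436 to 0.455 against -0.309 to -0.0999 for different numbers, so the numbers pair these libraries, as seen from the data. The choice of members, the spread ratio and the 2 fits were also tried on simulated data. Alternatives were other scalings, pseudocounts, count minimums, neighbours and fits, DESeq2 1.42.0, and each library left out. Named members were the 5 with the highest SD at 0 h, those at the limit of the list, the 5 most and 3 least variable at 2 h and 4 h, the 3 most abundant, the leader of each 0 h pattern, the first 3 in all 3 lists, and the largest called changes without overlap (5 rises and 5 falls, or 3 and 3 for polysomal RNA). Matching of the locus numbers to the gene tables at hand gave no name, and no sequence is shown.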

Additional observations from a re-analysis of the deposited data

How the results depend on the processing

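The choice of loci depended most on a lower count minimum and the 0 h libraries. Of the 200 members, 83 remained with a mean of at least 10 fragments. When 1 of the 3 libraries at 0 h was left out, 84 to 117 remained, the fewest without library 1. A pseudocount of 2, TMM scaling or the spread beyond counting error kept 171, 184 and 194. With at least 200 fragments 75 remained, which are by construction the members that reach this minimum. The spread ratio stayed above 1.5 in every alternative run. At 2 h it was 2.41 with TMM scaling, 1.61 with at least 10 fragments, 2.60 for spread beyond counting error, 2.54 for members with at least 100 fragments (chosen after seeing the data) and 1.72 to 2.36 without 1 library. At 4 h it was 2.02 with at least 200 fragments, 1.57 with at least 10, 2.69 for spread beyond counting error, 1.79 with neighbours matched on 2 h and 4 h, 2.27 for members with at least 100 fragments (chosen after seeing the data) and 1.62 to 1.94 without 1 library. Without 1 library, 40 to 54 members were in the 2 h list and 34 to 46 in the 4 h list, the median level differed from 0 h by -0.14 to 0.041 at 2 h and by -0.34 to -0.13 at 4 h (-0.34 without library 2 at 0 h, -0.23 with TMM scaling), and the mean correlation within a pattern was 0.044 to 0.14. Patterns with 2 libraries at 0 h could not be computed. With a replicate block made from read group numbers, 65 members were called between 4 h and 2 h, and 24 between polysomal and total RNA. Between 4 h and 2 h the numbers did not pair the libraries (r from 0.006 to 0.075 for the same numbers). Between 0 h and 2 h, libraries numbered 2 deviated together over all eligible loci (r = 0.347), beside 0.072 and 0.035 for numbers 0 and 1. Different numbers gave -0.284 to 0.206. The part of this in the results at 2 h was not tested. The block changed no call among the 16 loci named for the largest called changes. Among other named loci, XLOC_025139 lost its call between 4 h and 2 h (edgeR adjusted p = 0.0320 without and 0.0915 with the block). XLOC_033739 gained a call in both comparisons, and XLOC_033740 and XLOC_033805 gained one between 4 h and 2 h. Other alternatives gave 57 to 86 calls for 4 h against 2 h and 16 to 25 for polysomal against total RNA, except 61 with no minimum fold. The share of all loci called is given only for the main fits, with and without a minimum fold. Counts from the other fits therefore do not show whether the excess of members held. Depth limits the 71 members with under 100 fragments, whose spread is closest to counting error.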

Other observations

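Some members followed each other closely, and the values are given without explanation. Of the 200 members, 5 pairs had consecutive locus numbers, and both loci of each pair had the same 0 h pattern. XLOC_033739 had 357, 726 and 861 CPM at 0 h, 368, 136 and 605 CPM at 2 h, and 244, 65.9 and 85.4 CPM at 4 h. XLOC_033740 had 350.5, 612 and 774 CPM at 0 h, 372, 123 and 587 CPM at 2 h, and 233, 77.3 and 85.9 CPM at 4 h. In both, library 0 was lowest at 0 h and highest at 4 h. Pearson's r over the 9 libraries in log2(CPM + 0.5) was 0.992 for this pair, 0.996 for XLOC_032640 and XLOC_032641, 0.975 for XLOC_014101 and XLOC_014102, 0.854 for XLOC_023235 and XLOC_023236, and 0.8497 for XLOC_027168 and XLOC_027169. These are descriptions over 9 libraries from 3 time points, and whether such loci share reads was not tested.

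Some loci whose numbers were not consecutive were also alike. XLOC_030527 and XLOC_032037, the most abundant members, had r = 0.995. XLOC_033805 and XLOC_033814 had r = 0.980: at 4 h the first had 0.831, 0.889 and 4.98 CPM and the other 6.07, 5.82 and 21.3 CPM, with library 2 high in both. The consecutive XLOC_032640 and XLOC_032641, together with XLOC_028114, XLOC_001400 and XLOC_027061 formed a set with library 2 low at 0 h and at 2 h and high at 4 h. XLOC_032641 had 92.3, 133 and 48.0 CPM at 0 h, 68.6, 94.3 and 37.2 CPM at 2 h, and 86.9, 100 and 119 CPM at 4 h. These pairs were picked after their values were seen.

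Member loci outside the naming rule held the highest SD at 2 h and the third highest at 4 h of all eligible loci: XLOC_001822 at 2 h, with an SD of 2.18, and XLOC_015908 at 4 h. They were chosen after their values were seen.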
